A study of Homo sapiens with 4 samples.

Results

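The miR-130, miR-301 and miR-454 family is a group of microRNAs (miRNAs), short RNAs that guide the silencing machinery to messenger RNAs, whose guide strands carry the same seed. The family was taken by name from 4 small RNA libraries of HT29 and HCT15, 2 established human colorectal adenocarcinoma lines, under hsa-miR-130a-3p, hsa-miR-130b-3p, hsa-miR-130b-5p, hsa-miR-301a-3p, hsa-miR-301b and hsa-miR-454-3p (the species prefix is left out from here on). All 6 were listed in every library, out of 1882 miRNA names common to the 4. HT29 spheres and HCT15 spheres were grown in DMEM-F12 with N2 Plus Supplement, bFGF and EGF (10 ng/ml each), and the submitters regard them as cancer stem cells derived from spheres. HT29 parental cells were grown in DMEM and HCT15 parental cells in RPMI, each with 10% FBS. All media contained penicillin-streptomycin, so the cultures of a line differed in medium, serum and growth factors together. Each line and culture had 1 library, so a difference within a line has no replicate check. The series sought regulators that distinguish parental colorectal cancer cells from spheres.

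Each hairpin precursor can give a mature miRNA from its 5′ arm (5p) and its 3′ arm (3p), and one arm usually prevails as the guide. The seed, bases 2 to 8 of the mature miRNA, does most of the work of finding targets, so miRNAs with one seed are expected to share many of them. Single members are known from studies of human cells: miR-130b for repression of TP53INP1 in liver tumour-initiating cells, miR-301a for repression of NKRF, an inhibitor of NF-kB signalling, in pancreatic cancer cells, and miR-130a for repression of homeobox genes in endothelial cells. No messenger RNA was measured here.

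The mature sequences are shown because one shared seed defines the family. They are RefSeq's, on GRCh38.p14, written 5′ to 3′ with the seed in capitals. Of the 6 members, 5 matched an entry, and miR-301b was matched as miR-301b-3p. miR-130a-3p had no entry, so its sequence is not shown.
miR-130b-3p: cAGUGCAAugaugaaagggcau
miR-301a-3p: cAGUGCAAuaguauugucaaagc
miR-301b: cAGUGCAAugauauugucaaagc
miR-454-3p: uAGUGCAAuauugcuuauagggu
miR-130b-5p: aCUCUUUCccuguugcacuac
The 4 guide strands shown share the seed AGUGCAA, whereas miR-130b-5p, from the opposite arm, has another. miR-301a-3p and miR-301b differ at only 2 of 23 positions, by A10G and G11A (positions from 1 at the 5′ end, miR-301a-3p first), so their reads can be hard to assign. miR-130b-3p shares its first 12 bases with miR-301b. Among 2370 mature names in the RefSeq table, which lacks miR-130a-3p, 6 had this seed. The 2 outside the family as defined here, miR-3666 and miR-4295, were listed at 0 in all 4 libraries.

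The hairpins lie at 3 loci (GENCODE 29, GRCh38). MIR301B (chr22:21652981-21653058) and MIR130B (chr22:21653304-21653385) are on the plus strand, 245 bases apart, in an intron and an exon of the noncoding transcript AP000553.1. MIR301A (chr17:59151136-59151221) and MIR454 (chr17:59137758-59137872) are on the minus strand in introns of SKA2, which encodes a protein of the spindle and kinetochore complex. MIR130A (chr11:57641198-57641286) is on the plus strand in an intron of AP000662.1. The hairpin of MIR130B is shown with both arms in capitals, the 5p arm first, since both arms were measured.
MIR130B: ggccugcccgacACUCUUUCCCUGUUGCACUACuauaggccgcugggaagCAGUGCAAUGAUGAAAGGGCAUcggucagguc

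Listed reads came to 12794274 in HT29 spheres, 5806540 in HT29 parental cells, about 2317088 in HCT15 spheres and about 3183681 in HCT15 parental cells. The HCT15 reads were inferred from RPKM, with the commonest low value taken as 2 reads in spheres and 1 in parental cells, and the reads, intervals and floors of HCT15 rest on that choice. Levels are in CPM, a miRNA's share of all listed miRNA signal in its library times 1000000. The 95% intervals reflect counting alone, since each line and culture had 1 library. No molecular identifiers were used, so reads copied from the same molecule count separately, which the intervals do not allow for. The 6 epithelial miRNAs checked (the miR-200, miR-192 and miR-194 groups) summed to 221400 and 158631 CPM in HT29 spheres and parental cells, and to 12643 and 11340 CPM in those of HCT15. The stromal miRNAs miR-143-3p and miR-145-5p together did not exceed 6.10 CPM in any library. The muscle list, miR-1 and miR-133a, stood at 1158 CPM in HT29 spheres and 166 CPM in HT29 parental cells. Nearly all of it came from miR-1, at 1156 and 165 CPM, with miR-133a at 2.74 and 0.69 CPM. Both were listed at 0 in HCT15. The 4 blood-cell miRNAs summed to 375 and 402 CPM in HT29 spheres and parental cells, and to at most 2.85 CPM in HCT15. In HT29 the highest of the 4 alone held 367 and 381 CPM, and 1 was at 0 in each culture. Endothelial miR-126-3p was at 147 and 132 CPM in HT29 and at 8.60 and 12.2 CPM in HCT15, spheres before parental cells. The part of these lists in the family's ratios was not tested. In bulk RNA, fewer cells with a miRNA and less of it per cell cannot be told apart.

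miR-130b-3p was the most abundant member in every library. It was at 2027 CPM in HT29 spheres and 4397 CPM in HT29 parental cells, and at 1032 CPM in HCT15 spheres and 1627 CPM in HCT15 parental cells. It ranked 51st and 42nd among listed miRNAs in HT29 spheres and parental cells, and 68th and 63rd in those of HCT15. miR-130a-3p, its paralog from another locus, was almost undetected. It had 3 reads in HT29 spheres and 6 in HT29 parental cells, and 0 and 2 reads in HCT15 spheres and parental cells. A count of 0 allows up to 3 reads, or 1.29 CPM in HCT15 spheres. No ratio is given for it in HCT15, and in HT29 its log2 ratio of -1.08 had an interval of -4.21 to 0.64.

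miR-301a-3p was the second member in level in every library. It was at 210 CPM in HT29 spheres and 1007 CPM in HT29 parental cells, and at 900.5 CPM in HCT15 spheres and 1113 CPM in HCT15 parental cells. HT29 spheres were low and the other 3 libraries lay close together. miR-301b was at 68.4 CPM in HT29 spheres and 328 CPM in HT29 parental cells, and at 306 CPM in HCT15 spheres and 476 CPM in HCT15 parental cells. miR-454-3p was at 62.2 CPM in HT29 spheres and 274 CPM in HT29 parental cells, and at 174 CPM in HCT15 spheres and 186 CPM in HCT15 parental cells. For both, HT29 spheres again held the least. The order miR-130b-3p, miR-301a-3p, miR-301b, miR-454-3p held in all 4 libraries, and only miR-301b and miR-454-3p in HT29 spheres had overlapping intervals.

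miR-130b-5p, the opposite arm of miR-130b-3p, was the member whose level differed most between the lines. It was at 3.67 CPM in HT29 spheres and 18.9 CPM in HT29 parental cells, and at 123 CPM in HCT15 spheres and 314 CPM in HCT15 parental cells. In HCT15 parental cells it exceeded miR-454-3p, whereas in HT29 it was over 10-fold below it in both cultures. The lines' files were deposited in different units, so line and file cannot be told apart in these levels.

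**Figure D1:**
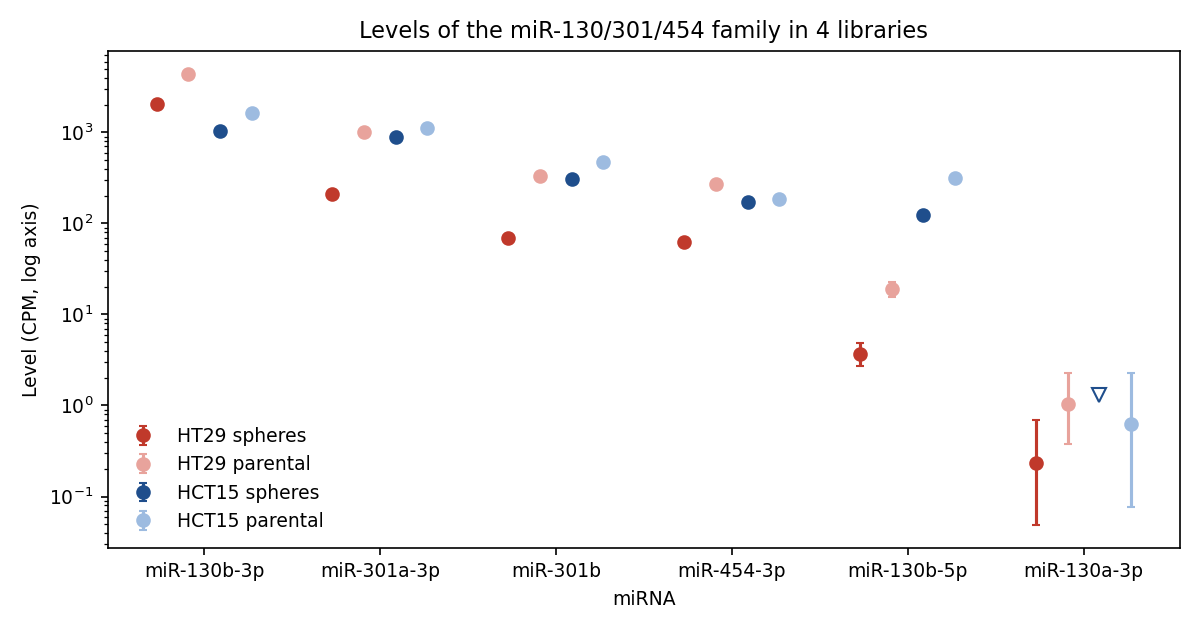
Level of each member in CPM (log axis) in the 4 libraries; points are single libraries, bars are exact Poisson 95% intervals, and the open triangle marks a count of 0 at the level of 3 reads. HT29 spheres are the lowest library for miR-301a-3p, miR-301b, miR-454-3p and miR-130b-5p, while miR-130b-3p is at 1032 CPM or more in all 4.

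In HT29, all 5 members with enough signal to be tested were lower in the sphere library, and they formed a tight group and an exception. Ratios are log2 of spheres over parental cells after TMM scaling, which sets the libraries to a common level by their shared miRNAs. The ratio was -1.76 for miR-130b-5p (interval -2.34 to -1.31), on 47 and 110 reads in spheres and parental cells. It was -1.71 for miR-301a-3p (interval -1.78 to -1.65), on 2683 and 5848 reads. It was -1.71 for miR-301b (interval -1.83 to -1.59), on 875 and 1906 reads. These 3 thus lay within 0.06 of each other, 3.27- to 3.39-fold lower in spheres, with a prior count of 2 added before the log. That closeness depended on the prior count. With 0.5 and 10 in its place, miR-130b-5p was at -1.80 and -1.59, while miR-301a-3p and miR-301b stayed between -1.71 and -1.70. miR-454-3p was close to these 3, at -1.59 (interval -1.71 to -1.46), on 796 and 1593 reads. miR-130b-3p stood apart, at -0.56 (interval -0.59 to -0.54), or 1.48-fold lower, on 25931 and 25530 reads.

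Of these 5 (10 CPM or more in at least 2 libraries), 4 were at least 2-fold lower in HT29 spheres, against 17.2% of the 377 miRNAs tested, and 0 were at least 2-fold higher, against 14.1%. Their median ratio was -1.71, against -0.02 over the 377. All 5 were below 0, against 196 of the 377. The 5 are not wholly separate observations. miR-130b-3p and miR-130b-5p come from the same hairpin, and miR-301a-3p and miR-301b are nearly alike in sequence. The 4 ranked from 21st to 35th lowest of the 377, and miR-130b-3p 113th. miR-130a-3p did not reach that minimum. Over 6 scalings each of the 4 stayed below -1.3, while miR-130b-3p ranged from -1.12 to -0.31.

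In HCT15 the same members lay near 0, with miR-130b-5p as the exception. Its ratio was -0.99 (interval -1.19 to -0.80), or 1.99-fold lower, on 291 and 1014 reads in spheres and parental cells. miR-130b-3p was at -0.31 (interval -0.38 to -0.24), on 2399 and 5189 reads. miR-301b was at -0.28 (interval -0.42 to -0.16), on 703.5 and 1500 reads. Both guide strands from chromosome 22 were thus slightly lower in HCT15 spheres, though over 6 scalings they ranged from -0.65 to -0.071 (miR-130b-3p) and from -0.63 to -0.050 (miR-301b). Of those from chromosome 17, miR-301a-3p was at 0.05 (interval -0.03 to 0.12), on 2067.5 and 3505 reads, and miR-454-3p at 0.25 (interval 0.07 to 0.44), on 399 and 586 reads. The sign of both depended on the scaling, with ranges of -0.30 to 0.28 for miR-301a-3p and -0.10 to 0.49 for miR-454-3p. Of the 5 tested members, 0 were at least 2-fold lower, against 9.81% of the 377, and 0 at least 2-fold higher, against 5.84%. Their median was -0.28, against -0.03 over the 377.

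**Figure D2:**
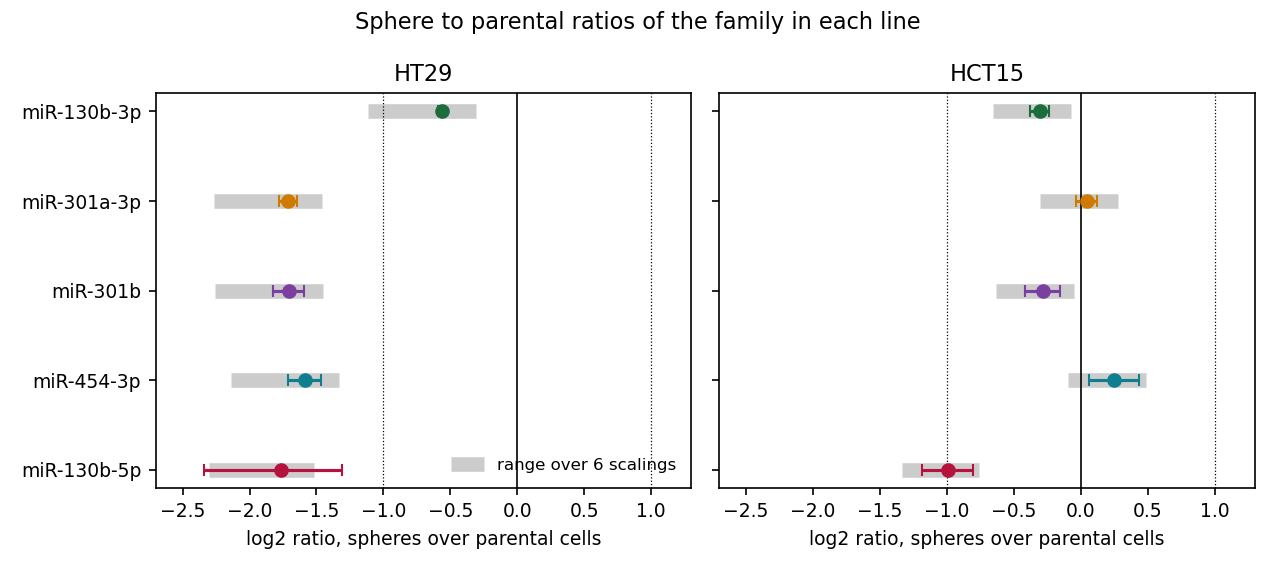
log2 ratio of spheres over parental cells for the 5 tested members in HT29 (left) and HCT15 (right); points are TMM-scaled ratios of 1 library to 1 library, bars 95% counting intervals, grey bands the range over 6 scalings, and dotted lines 2-fold. In HT29, 4 members lie below -1.3 under every scaling, and in HCT15 miR-130b-5p lies lowest.

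**Figure D3:**
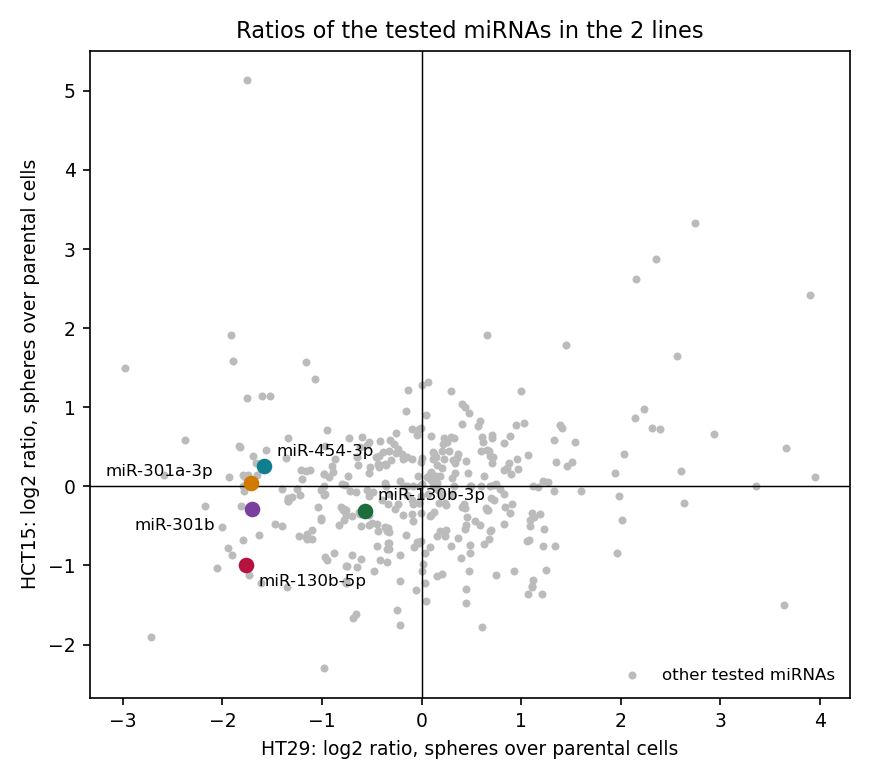
Ratios in HCT15 against ratios in HT29, both as log2 of spheres over parental cells, for the 377 tested miRNAs (grey) and the 5 tested members (coloured and named). The members lie on the left, between -1.76 and -0.56 in HT29, and spread from -0.99 to 0.25 in HCT15.

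Across both lines, no member passed the test, which takes HT29 and HCT15 as replicates of a culture. limma with cell line as a block gave adjusted p-values (Benjamini-Hochberg, over 377 miRNAs) of 0.727 to 0.780 for the 5. miR-130b-5p, lower in both lines, had a log2 fold change of -1.30 (SE 0.42), an unadjusted limma p of 0.0388 and an adjusted p of 0.727. The other 4 members lay between -0.99 for miR-301b (SE 0.56) and -0.44 for miR-130b-3p (SE 0.36). Of all 377, limma called 0 higher and 0 lower (0.0% each way) at an adjusted p under 0.05. At an unadjusted p under 0.05 limma had 21 (5.57%), of which 9 (2.39%) were lower, miR-130b-5p among them. With edgeR's quasi-likelihood test on reads, 0 were called and 17 had an unadjusted p below that limit, with 0 members among them. Members below it were also 0 with upper quartile scaling and with a pseudocount of 10 added to CPM. They were 2 without a filter on low values and 1 in each other alternative fit. Only 1 residual degree of freedom was left to limma. Its p-values rest on each miRNA's spread between these 2 lines, drawn towards a trend fitted over all 377 miRNAs. That trend counted for a median of 2.75 prior degrees of freedom, so the p-values do not measure a member's own spread alone.

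How the members shifted against each other does not depend on scaling between libraries. In HT29 there were 0.103 reads of miR-301a-3p per read of miR-130b-3p in spheres and 0.229 in parental cells, a log2 change of -1.15 (interval -1.22 to -1.08). The ratio of miR-301b to miR-130b-3p was 0.0337 in spheres and 0.0747 in parental cells (log2 change -1.15, interval -1.27 to -1.03). The hairpins of miR-301b and miR-130b-3p are neighbours on chromosome 22. Their guide strands parted about as far as miR-130b-3p and miR-301a-3p, which lie on different chromosomes. Whether the hairpins are transcribed together in these cells was not tested. The ratio of miR-301b to miR-301a-3p was 0.326 in both HT29 cultures (log2 change 0.00, interval -0.13 to 0.14). These 2 sequences are nearly alike, and the treatment of reads matching both is not stated for HT29 either. The part of such reads in the HT29 shifts was not tested. miR-301b against miR-130b-5p, the other product of that neighbouring hairpin, had 18.6 in spheres and 17.3 in parental cells (log2 change 0.10, interval -0.42 to 0.64).

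In HCT15 the pattern was another one. miR-301b per miR-130b-3p was 0.293 in spheres and 0.289 in parental cells (log2 change 0.02, interval -0.13 to 0.17). miR-301a-3p per miR-130b-3p was 0.862 in spheres and 0.675 in parental cells (log2 change 0.35, interval 0.25 to 0.46). miR-454-3p per miR-130b-3p was 0.166 in spheres and 0.113 in parental cells (log2 change 0.56, interval 0.36 to 0.76). Here the chromosome 22 guides were in nearly the same proportion in both cultures, and both chromosome 17 guides were higher against miR-130b-3p. Unlike in HT29, miR-301b parted from miR-130b-5p, at 2.42 in HCT15 spheres and 1.48 in HCT15 parental cells (log2 change 0.71, interval 0.48 to 0.94). miR-301b per miR-301a-3p was 0.340 in HCT15 spheres and 0.428 in HCT15 parental cells (log2 change -0.33, interval -0.49 to -0.18). In HCT15 spheres the reads inferred for this pair were not whole, at 2067.5 and 703.5, while the other members had whole reads to within 0.02, and the treatment of reads matching both is not stated in the labels.

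The pool of guides with the shared seed was made up differently in each line. miR-130b-3p made up 85.6% of the family's 3p reads in HT29 spheres (interval 85.2 to 86.0%) and 73.2% in HT29 parental cells (72.7 to 73.7%). In HCT15 it made up 43.1% in spheres (41.8 to 44.4%) and 48.1% in parental cells (47.2 to 49.1%). miR-301a-3p held 8.86% and 16.8% in HT29 spheres and parental cells, and 37.1% and 32.5% in those of HCT15. The HT29 pool was thus mostly one miRNA, more so in spheres, and the HCT15 pool was shared between miR-130b-3p and miR-301a-3p in both cultures. Summed over the 5 guides, the pool stood at 2367 CPM in HT29 spheres and 6008 CPM in HT29 parental cells. These CPM are not TMM-scaled. The log2 ratio was -0.79 after TMM scaling (interval -0.81 to -0.77) and -1.34 with total listed reads. In HCT15 the pool stood at 2412 CPM in spheres and 3402 CPM in parental cells. Its log2 ratio was -0.15 after TMM scaling (interval -0.19 to -0.10) and -0.49 with total listed reads. Other scalings turned that sign (0.079 with DESeq2 size factors and 0.089 with the upper quartile). Without miR-130b-3p, the HT29 sum stood at 341 CPM in spheres and 1611 CPM in parental cells (log2 ratio after TMM scaling -1.69, interval -1.74 to -1.64).

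**Figure D4:**
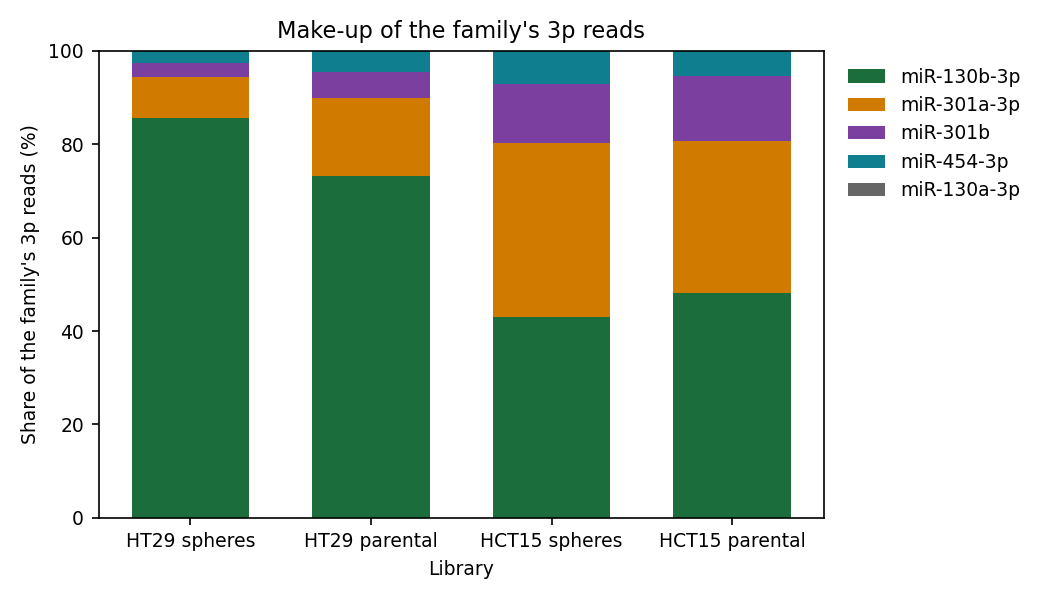
Share of each guide strand in the family's 3p reads, in percent, for the 4 libraries; each bar is 1 library and sums to 100%. miR-130b-3p takes 85.6% in HT29 spheres and 73.2% in HT29 parental cells, and under 50% in both HCT15 libraries.

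The arms of MIR130B gave different shares in each library. The 5p arm made up 0.181% of the hairpin's reads in HT29 spheres (exact Clopper-Pearson interval 0.133 to 0.241%) and 0.429% in HT29 parental cells (0.353 to 0.517%). In HCT15 it made up 10.8% in spheres (9.67 to 12.1%) and 16.3% in parental cells (15.4 to 17.3%). In both lines the 5p share was lower in spheres. The odds of a read being 5p had a log2 change of -1.25 in HT29 (interval -1.77 to -0.74) and -0.69 in HCT15 (interval -0.89 to -0.49), spheres over parental cells. Among hairpins with at least 20 minor-arm reads on average, the minor arm was at least 2-fold lower against the major one in 26.6% of 124 hairpins in HT29 and 14.5% of 83 in HCT15, and at least 2-fold higher in 8.87% and 4.82%. miR-130b ranked 27th lowest of the 124 and 20th lowest of the 83.

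Of the other hairpins, MIR454 in HT29 went against this direction. Its 5p share was 4.33% in HT29 spheres and 2.45% in HT29 parental cells, on 36 and 40 reads of the 5p arm. In HCT15 it was 23.3% in spheres and 40.0% in parental cells, on 121 and 390 reads. The direction was thus opposite in the lines (log2 odds change 0.85, interval 0.15 to 1.55, in HT29 and -1.13, interval -1.49 to -0.78, in HCT15), and that difference was not tested. For MIR301A the 5p share was 0.960% and 1.17% in HT29 spheres and parental cells, and 0.720% and 1.41% in those of HCT15. The log2 odds change of MIR301A was -0.28 in HT29 (interval -0.998 to 0.39) and -0.97 in HCT15 (interval -1.92 to -0.11), where the 5p arm had 15 and 50 reads in spheres and parental cells. Among the hairpins ranked by minor against major arm, MIR454 was 110th lowest of 124 in HT29 and 8th lowest of 83 in HCT15. MIR301A was 66th and 14th lowest. In HCT15 both thus ranked lower than MIR130B, at 20th. miR-130a-5p was listed at 0 in all 4 libraries.

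Between the lines, the 5p share of MIR130B was far lower in HT29 than in HCT15. Among parental cells there were 232 reads of miR-130b-3p per read of miR-130b-5p in HT29 and 5.12 in HCT15, and among spheres 552 in HT29 and 8.24 in HCT15. On the log2 scale the minor arm per major arm differed by -6.05 in spheres and -5.50 in parental cells, HT29 minus HCT15, which ranked 8th and 12th lowest of 121 hairpins. The medians over these hairpins were also below 0, at -0.86 and -1.09, and for MIR301A the differences were 0.40 and -0.28. For MIR454 they were -2.73 in spheres and -4.71 in parental cells, 31st and 19th lowest, in the same direction as MIR130B. Line and the making of the files cannot be told apart here either.

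**Figure D5:**
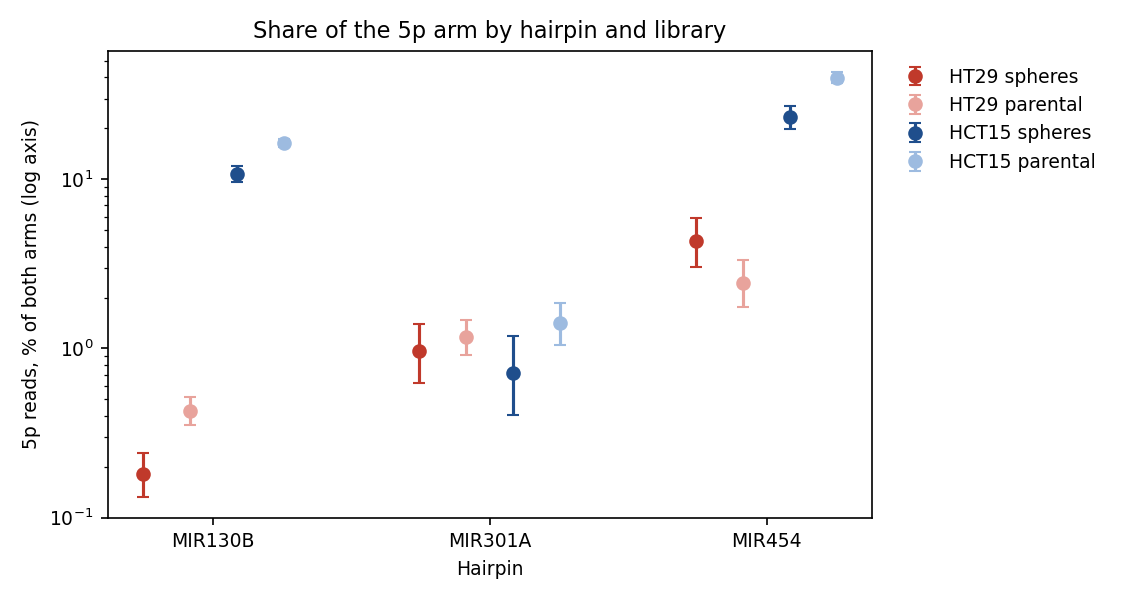
Share of the 5p arm in the reads of both arms, in percent (log axis), for 3 hairpins and 4 libraries; points are single libraries and bars exact 95% intervals. MIR301A stays between 0.720% and 1.41% in all 4, while MIR130B runs from 0.181% in HT29 spheres to 16.3% in HCT15 parental cells.

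Of related miRNAs, 2 families have seeds that overlap the family's seed shifted by 1 base, and one example of each is shown for the shared letters (seed in capitals).
miR-148a-3p: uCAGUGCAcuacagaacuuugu
miR-19a-3p: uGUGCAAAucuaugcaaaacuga
The ratios of the miR-19 family resembled those of the miR-301 and miR-454 guides in HT29, at -1.82 for miR-19a-3p and -1.84 for miR-19b-3p, but were higher in HCT15, at 0.50 for both. The miR-148 and miR-152 family had the opposite direction in HT29, with a median of 2.03 over its 3 members, and 0.73 in HCT15. Overlap between seeds thus did not go with a common direction, and no test was made between these families.

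Over the 4 libraries, the miRNA outside these lists nearest in pattern to miR-301a-3p was let-7d-3p, at a Euclidean distance of 0.32 between centred log2 profiles, where the median of 365 miRNAs was 3.04. It was also nearest to miR-301b, at 0.35, and miR-576-5p came second for both (0.42 and 0.36). miR-301a-3p and miR-301b were as near to each other, at 0.32. Nearest to miR-454-3p were miR-550a-3p (0.26) and let-7e-3p (0.30), and to miR-130b-3p, miR-651 (0.38) and miR-17-3p (0.45). For miR-130b-5p the nearest distances were larger, with miR-1180 at 0.96 and miR-92a-1-5p at 1.02. Its median distance was larger too, at 5.31, against 2.35 for miR-130b-3p. With 4 libraries, such distances describe these profiles only.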

How the data were processed

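Sequencing libraries came from 1 ug of total RNA (TruSeq Small RNA Sample Prep). The authors deposited raw read counts per mature miRNA for HT29 and RPKM values for HCT15, per the file headers. The submitters' processing notes name hg19. The aligner, trimming and the treatment of shared reads are not stated in those notes or labels. RPKM was turned into reads from the steps between low values and the mature length. CPM is a miRNA's share of the listed total. limma 3.58.1 with trend (R 4.3.3) was run on log2(CPM + 1) after TMM scaling (edgeR 4.0.16). Cell line was the block, and 377 miRNAs reaching 10 CPM in 2 or more libraries entered. edgeR and DESeq2 1.42.0 on reads were alternatives. Ratios within a line used a prior count of 2 and exact conditional binomial 95% intervals (scipy 1.17.1). The limma and edgeR fits, but not DESeq2, were tried on simulated data with the same fold change in both lines. The outcome is not reported here. The 6 members were always named, with the other arms of their hairpins, miRNAs with the same or a shifted seed, and the 2 nearest profiles per member. The members and lists were chosen with earlier results of these data known, and the minimum of 20 minor-arm reads with the files in hand.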

Additional observations from a re-analysis of the deposited data

Results flagged for a closer look

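miR-301a-3p and miR-454-3p had ratios of opposite sign in the 2 lines after TMM scaling, but not under every scaling. miR-301a-3p was at -1.71 in HT29 and 0.046 in HCT15 (log2 of spheres over parental cells), and the HCT15 interval of -0.03 to 0.12 includes 0. miR-454-3p was at -1.59 in HT29 and 0.25 in HCT15 (interval 0.07 to 0.44). With total listed reads the HCT15 ratios were -0.30 for miR-301a-3p and -0.10 for miR-454-3p, the same sign as in HT29, and without the 10 most abundant miRNAs that of miR-301a-3p was -0.18. The difference between the lines was not tested, since each line has 1 library per culture.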

How the results depend on the processing

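None of the 5 tested members was called in any of the 10 alternative fits across both lines, and their log2 fold changes stayed negative in each. Over all miRNAs, 3 were called without the 10 most abundant miRNAs in the scaling, 6 without a filter on low values and 6 with DESeq2 on reads, all higher in spheres. With HT29 or HCT15 left out, the value of miR-301a-3p ranged from -1.71 to 0.046 and that of miR-454-3p from -1.59 to 0.25. The summed 3p ratio in HT29 was -1.34 with total listed reads, -0.73 with DESeq2 size factors, -0.54 with the upper quartile, -0.89 without the 10 most abundant miRNAs, -0.58 with TMM on the line alone and -1.69 without miR-130b-3p. In HCT15 it was -0.49 with total listed reads, 0.079 with DESeq2 size factors, 0.089 with the upper quartile, -0.37 without the 10 most abundant and -0.012 without miR-130b-3p. In HCT15, 1 tested member was at least 2-fold lower with total listed reads and 1 without the 10 most abundant, against 0 with TMM. With total listed reads the HCT15 ratio of miR-454-3p was -0.10. The cause of these moves was not tested beyond the shift that each scaling puts on all miRNAs of a library: against TMM, total listed reads moved ratios by -0.55 in HT29 and -0.35 in HCT15. The 5p shares of MIR130B moved within their intervals when 1 read was added to each arm. Depth limits miR-130a-3p, at 0 to 6 reads, and miR-301a-5p, at 15 to 69.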

Other observations

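In the HCT15 files the value of 1 read was larger for longer mature miRNAs. In spheres it was 0.260 for 21 bases, 0.263 for 22 and 0.267 for 23, and in parental cells 0.160, 0.162 and 0.164. These steps are proportional to the length divided by the length plus 9 in both libraries, whereas a value per kilobase of the mature miRNA would be smaller for a longer one. The commonest low value was taken as 2 reads in spheres and 1 in parental cells; taken as 1 read in spheres, 39.1% of the low values there would be whole. With this rule, 73.5% of 355 values under 200 reads in spheres and 69.4% of 674 in parental cells were whole within 0.02 reads. In spheres 4 names stood at 1 read and 42 at 2, against 124 and 58 in parental cells.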
